A study of Homo sapiens with 18 samples.

Results

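G-K562 cells were compared with V-K562 cells by RNA-seq across all genes and pathways. K562 is an established human leukemia cell line with erythroid features. V-K562 cells carried the empty vector and were the control, and G-K562 cells expressed BASP1-G2A, in which the glycine that takes the N-terminal lipid is replaced by alanine. Both lines were stably transfected derivatives kept under G-418 and selected as a pool, 1 pool for each line, so the construct and the history of the pool cannot be told apart. The comparison used the 3 V-K562 and 3 G-K562 RNA-seq libraries, 6 of the 18 samples of the series, described as biological triplicates. The table for these lines held 28395 genes, of which 15271 reached a value of 10 in at least 3 libraries and were tested.

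BASP1 is a protein of neuronal membranes that is also found in the nucleus, where it acts as a corepressor of transcription factors such as WT1. N-myristoylation joins a fatty acid to the glycine at amino acid 2 once the initiator methionine is gone, and G2A removes the site. K562 cells make embryonic and fetal globins, a heme pathway and red cell membrane proteins under GATA1, TAL1 and KLF1, and like many leukemia lines they run glycolysis and sterol synthesis at high levels.

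A value is the number of read pairs on a gene divided by the size factor of the library and rounded by the authors, so values can be compared between libraries but do not correct for gene length. By an estimate from the spacing that the rounding left, each library had 28921016 to 37038665 read pairs on genes, and its values summed to between 32342190 and 33229588. Pearson correlations of log2 values across genes were 0.993 to 0.995 between libraries of 1 line and 0.924 to 0.935 between lines. The library V-K562 1 stood apart in a small way. It had 36 genes at 10 or more that were at 2 or less in the other 5 libraries, with a summed value of 1239, whereas the other libraries had 0 or 1 such gene. KRT5, a keratin of basal epithelium, was at 145 in V-K562 1, at 0 in V-K562 2 and V-K562 3 and at 0 or 1 in G-K562 cells. None of the 36 genes passed the filter, and the counts of changed genes without V-K562 1 were 1355 higher and 1586 lower.

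Changes were tested on log2(value + 1) with limma-trend, a linear model that moderates each gene's variance by that of genes of like level. A gene was called when its p-value after Benjamini-Hochberg adjustment did not exceed 0.05 and it had moved 2-fold or more, that is by 1 on the log2 scale. In G-K562 cells 1345 genes (8.81% of those tested) were higher and 1574 (10.3%) were lower than in V-K562 cells. Large falls outnumbered large rises, with 291 called genes lower and 163 higher by at least 3 on the log2 scale. Genes called higher had a median value of 39.7 in V-K562 and 159.7 in G-K562 cells. Genes called lower went from a median of 120.2 to 24.7, and genes not called had a median of 918 in V-K562 cells. Changes of at least 2-fold were seen mainly among genes of modest level, and 57.8% of all tested genes lay within 0.5 of 0 on the log2 scale. For 10718 tested genes (70.2%) all libraries of 1 line were above those of the other, and so they were for 2897 of the 2919 called genes.

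**Figure D1:**
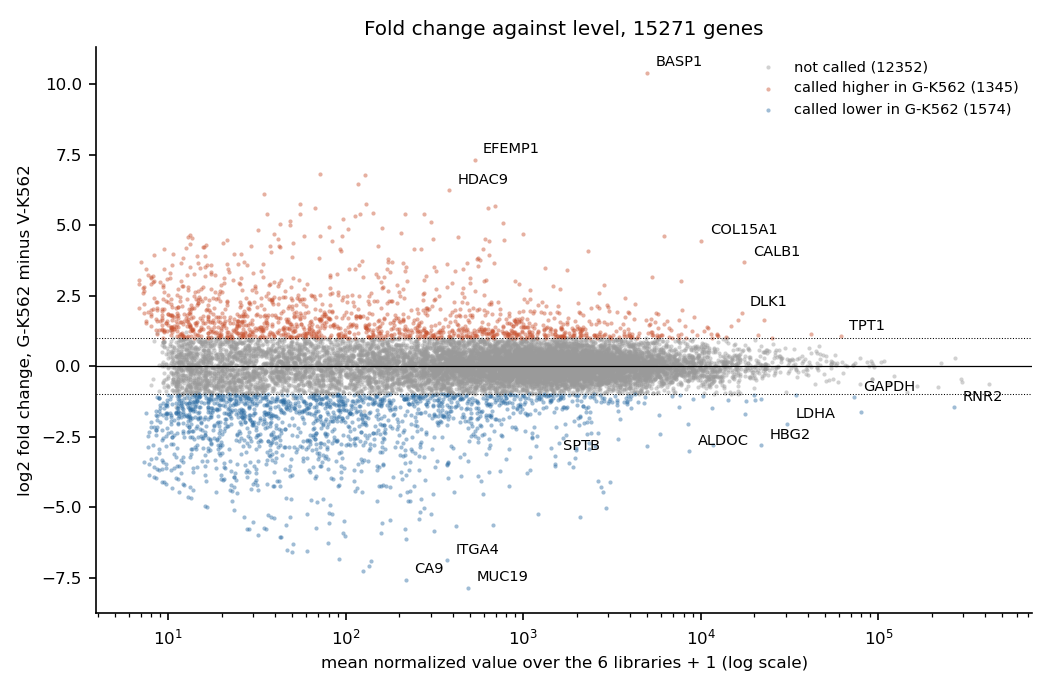
Log2 fold change between G-K562 and V-K562 cells against the mean value over the 6 libraries plus 1 (log scale), 1 point per tested gene. Orange points are the 1345 genes called higher, blue points the 1574 called lower and grey points the genes not called, and dotted lines mark a log2 fold change of 1 in each direction. BASP1 stands alone at the top, and the abundant genes that moved by over 1 on the log2 scale include RNR2, GAPDH, LDHA and HBG2 on the lower side and TPT1 on the higher side.

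BASP1 (gene 10409, chromosome 5 from 17216823 to 17276845 on GRCh38, plus strand) checked the labels. It was at 7, 5 and 7 in V-K562 cells and reached 9323, 12538 and 8124 in G-K562 cells, a log2 fold change of 10.40 ± 0.16 (SE). G-K562 2 was the highest, and the lines did not overlap. Transcripts of the construct and of the chromosomal gene are not separated in these values, and no ATAC-seq library of either line had a called peak within 1000 bases of the annotated BASP1 start.

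After BASP1, the largest rises were in genes of different families that V-K562 cells hardly expressed. EFEMP1 (gene 2202, chromosome 2 from 55865962 to 55924163), an extracellular matrix glycoprotein of the fibulin family, went from 5, 3 and 11 to 960, 1160 and 1046. ZIC1, a zinc finger transcription factor of the nervous system, went from 0, 1 and 0 to 130, 150 and 141. LHX1, a LIM homeobox factor of kidney and head development, went from 3, 2 and 0 to 209, 260 and 293. The lowest G-K562 library was at least 130 for each of these 3 genes and the highest V-K562 library at most 11, with log2 fold changes of 7.32 ± 0.31, 6.81 ± 0.33 and 6.79 ± 0.43. CSF2, the cytokine GM-CSF, went from 5, 0 and 2 to 227, 190 and 270. HDAC9, a class IIa histone deacetylase, was even among libraries, at 9 in each V-K562 library and at 756, 740 and 759 in G-K562 cells. LRRTM4, a synaptic membrane protein, was at 0 in all 3 V-K562 libraries and at 68, 66 and 67 in G-K562 cells, at least 22.3-fold higher against a floor of 3 counts per library. RBMS1, PCLO, FAR2P1, SYNE1 and MZB1 completed the 12 largest rises, at 5.60 to 5.75 on the log2 scale. FAR2P1 is a pseudogene, and reads that fit its copies as well were dropped as not unique.

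The largest falls were as steep. MUC19 (gene 283463, chromosome 12 from 40393394 to 40570757), a gel-forming mucin gene, went from 914, 1032 and 982 to 4, 4 and 2, a log2 fold change of -7.85 ± 0.21. CA9, a carbonic anhydrase of the cell surface induced by hypoxia, went from 472, 433 and 398 to 2, 1 and 1. ITGA4, the integrin subunit of VLA-4, went from 773, 784 and 651 to 6, 6 and 4. The lines were far apart for each of these genes, and no G-K562 library exceeded 6. CYB5A, cytochrome b5, was at 115, 99 and 77 in V-K562 cells and at 0 in all 3 G-K562 libraries, at least 32.3-fold lower. CSMD3, a large transmembrane protein, likewise went from 77, 94 and 101 to 0 in all 3, at least 30.2-fold lower. MARCHF1, LINC00508, FSTL5, PRR16, SYN3, DACH1 and ZNF506 were the others of the 12, with log2 fold changes of -7.28 to -6.29.

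**Figure D2:**
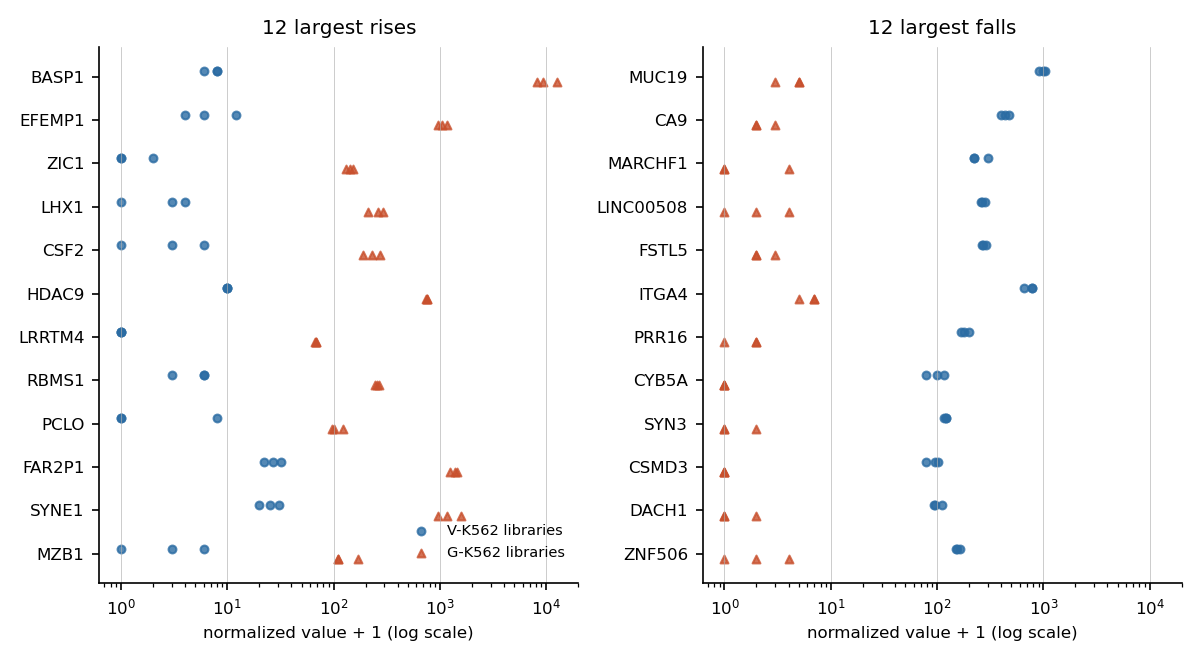
Values plus 1 (log scale) in each library for the 12 largest rises and the 12 largest falls. They were chosen among called genes with a mean of at least 50 in the higher line and no overlap between the lines. Circles are the 3 V-K562 libraries and triangles the 3 G-K562 libraries, and their separation in every gene shown follows from that choice.

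These genes did not all stand at the same level in B-K562 cells, which express wild-type BASP1. In a limma fit of all 9 RNA-seq libraries, with the B-K562 values brought to the same scale, CA9 was at 3, 2 and 0 in B-K562 cells and its difference between G-K562 and B-K562 was -0.01 ± 0.43 on the log2 scale (adjusted p = 0.98). MARCHF1 (-0.20 ± 0.54, adjusted p = 0.74, limma) and CSMD3, at 0 in all 6 libraries of the BASP1 lines, were also not told apart. By contrast EFEMP1 was at 0, 3 and 2 in B-K562 cells, 8.83 ± 0.46 below G-K562 cells on the log2 scale. CYB5A was at 318, 310 and 303 and LINC00508 at 543, 540 and 534 in B-K562 cells, so these genes were low in G-K562 cells alone among the 3 lines, with G-K562 minus B-K562 differences of -8.31 ± 0.20 and -8.10 ± 0.34. Set against B-K562 cells at the same limits, G-K562 cells had 2706 genes higher (17.7% of those tested) and 1794 lower (11.7%). The filter used V-K562 and G-K562 libraries only. Genes expressed in B-K562 cells alone were therefore left out and those in G-K562 cells alone kept, so the balance of these counts depends on the filter.

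Among genes called at 2-fold, the largest rises by amount of RNA were those of TPT1, WARS, CALB1, LAPTM4B, DLK1 and COL15A1. TPT1, the translationally controlled tumor protein, went from 39672, 39606 and 39656 to 77134, 87529 and 85319 (log2 fold change 1.07 ± 0.07). WARS, tryptophanyl-tRNA synthetase, went from 25583, 26058 and 25986 to 57795, 55414 and 58043. CALB1, the calcium-binding protein calbindin, went from 2888, 2295 and 2371 to 31653, 36500 and 29854 (3.70 ± 0.09). All 3 G-K562 libraries were above all 3 V-K562 libraries for each of them, and nearly all called genes were likewise without overlap. COL15A1, a basement membrane collagen, went from 717, 847 and 1099 to 19368, 16913 and 21372 (4.45 ± 0.13), and DLK1, an imprinted NOTCH-like protein of progenitors, from 7004, 7032 and 7442 to 30049, 23941 and 26474. The largest falls by amount among called genes were those of RNR2, the mitochondrial large ribosomal RNA, then ALDOA, GAPDH and LDHA of glycolysis and the globins HBG2 and HBE1.

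The erythroid program was lower as a group. The globin genes and the chaperone AHSP had 9 tested members and all 9 were called lower, with a median log2 fold change of -1.75, against 10.3% called lower and a median of 0.0027 over all genes tested. HBG2, fetal gamma globin, went from 37719, 41997 and 35315 to 5396, 5597 and 5347 (-2.81 ± 0.07). HBE1, embryonic epsilon globin, went from 49293, 46758 and 41112 to 20900, 26464 and 20187 (-1.03 ± 0.10). Both fell without overlap, like nearly all called genes. The summed value of the list went from between 87967 and 102740 to between 27614 and 34896. AHSP, which holds free alpha globin, went from 487, 463 and 334 to 1, 11 and 8 (-6.14 ± 0.51), the steepest fall of the list. HBG1 and HBG2, and HBA1 and HBA2, are near-identical copies, and each of the 4 fell. Reads that fit both copies were dropped as not unique, so the values of these genes can be too low. In bulk RNA, fewer cells that express a gene and less RNA per cell cannot be told apart.

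Of 10 heme synthesis enzymes and carriers, 4 were called lower and none higher (median -0.67), against 10.3% lower over all genes tested. CPOX, coproporphyrinogen oxidase, went from 4423, 4550 and 4259 to 665, 615 and 580 (-2.83 ± 0.07), and UROD, FECH and PPOX fell by 1.02 to 1.16 on the log2 scale. ALAS2, the erythroid first enzyme of the pathway, did not reach the limit at -0.77 ± 0.07, and ALAD was at 0.31 ± 0.07. Of 19 red cell membrane proteins, 10 were called lower and none higher (median -1.12). SPTB, the erythroid beta spectrin, went from 2605, 3075 and 2425 to 317, 300 and 268 (-3.19 ± 0.10). EPB42, protein 4.2, went from 219, 233 and 219 to 33, 36 and 44 (-2.55 ± 0.15), and KEL, the Kell blood group protein, from 3694, 3478 and 3662 to 1144, 1194 and 1153 (-1.63 ± 0.06). The membrane proteins did not move alike, since EPB41, DMTN, EPOR, XK and ANK1 were between -0.22 and -0.05.

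Among 13 erythroid transcription factors 3 were called lower (23.1%), GFI1B (-1.98 ± 0.08), KLF1 (-1.48 ± 0.09) and LMO2 (-1.26 ± 0.08). The share called lower over all genes tested was 10.3%. GATA1, at 8207, 8194 and 8196 in V-K562 cells, was at 5819, 5560 and 5347 in G-K562 cells (-0.56 ± 0.05), and TAL1 was at -0.79 ± 0.07. MYB, a factor of immature progenitors, was at 0.04 ± 0.06. The iron handling genes had 1 call of 12 (8.33%), STEAP3 (-1.05 ± 0.08), against 19.1% called over all genes tested. Against B-K562 cells the erythroid lists were further apart, with medians of G-K562 minus B-K562 of -3.32 for the globins (9 of 9 lower), -1.31 for heme synthesis (6 of 10) and -1.48 for the membrane proteins (14 of 19).

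K562 markers were kept in part, and the identity of the cells was not tested. GATA1, TAL1, BCR and ABL1 were at 3606 or more in every library. However, 6 of the 10 defining markers, KLF1 and globins among them, were called lower, against 10.3% over all genes tested. The median of the list was -1.24. Genes of other blood lineages moved in both directions, with 33.3% of megakaryocyte and 35.7% of myeloid genes called, against 19.1% over all genes tested. Of 12 megakaryocyte genes tested, GP6 (235, 244 and 186 to 980, 905 and 823, 2.03 ± 0.11) and PLEK were called higher, and ITGA2B, the platelet integrin (4281, 4339 and 4628 to 1057, 832 and 682, -2.39 ± 0.12), and TUBB1 were called lower. The defining genes PF4, GP9 and GP1BA were at 5 or less in every library. Of 14 myeloid genes tested, ITGAM, the CD11b integrin (39, 45 and 56 to 297, 301 and 298, 2.67 ± 0.15), and LYZ, lysozyme (1353, 1323 and 1369 to 4301, 3822 and 3772, 1.55 ± 0.06), were called higher, whereas PRG2, an eosinophil granule protein, CSF3R and CEBPE were called lower. SPI1, the myeloid master factor, was at 0.09 on the log2 scale.

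Marker lists of other cell types, all but the epithelial list, had low sums. Of 5 T and NK cell markers tested 1 was called higher and 2 lower (60%), with log2 fold changes from -3.53 to 1.32. B cell markers had 1 call, lower, of 4 tested (25%), and fibroblast and endothelial markers 1, lower, of 6 (16.7%). Over all genes tested 19.1% were called. The 9 T and NK cell markers summed to between 490 and 637 in V-K562 and between 258 and 328 in G-K562 cells, most of it CD3D (570, 477 and 409 to 162, 160 and 228, called lower). The 6 B cell markers summed to between 318 and 327 and between 323 and 353, with MS4A1 at 0 in every library. The 8 epithelial markers had no call among 5 tested, and their sum, from between 37186 and 38672 to between 42060 and 43418, was mainly KRT8 and KRT18. The 9 fibroblast and endothelial markers summed to between 2043 and 2367 and between 1840 and 1999, with LUM, PDGFRA and CDH5 at 4 or less. Their part in the other results was not tested.

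Glycolysis, the hypoxia response and cholesterol synthesis also had large shares of falls, against 10.3% called lower over all genes tested. In glycolysis all 11 called members of the 22 were lower (median -0.94), and their list's summed value went from between 551775 and 583032 to between 281077 and 286627. LDHA, which turns pyruvate into lactate, went from 46862, 53121 and 47952 to 11714, 12039 and 11459 (-2.07 ± 0.06). ALDOC, aldolase C, went from 15045, 15571 and 15436 to 1935, 1966 and 1779 (-3.02 ± 0.06), and ENO2, neuronal enolase, was at -2.91 ± 0.08. The glucose transporter SLC2A1, hexokinases HK1 and HK2, GPI, ALDOA, GAPDH, PGK1 and PGAM1 were the other called genes, at -2.41 to -1.09. No V-K562 library overlapped a G-K562 library in any of these 11 genes, nor in 2897 of all 2919 called genes.

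The hypoxia response list, genes known as targets of HIF1, shares SLC2A1 with glycolysis. Of its 19 tested members 9 were called lower and 1 higher (median -0.76). NDRG1, a stress-responsive gene, went from 3376, 3634 and 3640 to 342, 387 and 378 (-3.26 ± 0.07). P4HA1 and PDK1, a collagen prolyl hydroxylase and a brake on pyruvate oxidation, were at -2.41 ± 0.07 and -2.05 ± 0.08, and BNIP3, a mitophagy receptor, was at -2.16 ± 0.07. ANGPTL4 was the exception, at 34, 25 and 37 in V-K562 cells and 130, 101 and 120 in G-K562 cells (1.85 ± 0.19). HIF1A itself was at -0.45 ± 0.06 and EPAS1, which encodes HIF2-alpha, at 0.56 ± 0.07, neither called. Against B-K562 cells the list had no common direction, with 6 members higher, 5 lower and a median of 0.26. The shares over all genes tested were 17.7% higher and 11.7% lower.

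Cholesterol synthesis had 11 of 20 enzymes called lower and none higher (median -1.04), and its summed value went from between 95864 and 106848 to between 47330 and 52090. HMGCS1, HMG-CoA synthase, went from 11929, 14202 and 14519 to 3306, 3574 and 3017 (-2.04 ± 0.08), and MSMO1, a methylsterol oxidase, from 2595, 2927 and 3335 to 554, 597 and 486 (-2.43 ± 0.10). Of 19 genes of sterol uptake and transport, 4 were called higher and 3 lower (36.8% called, against 19.1% over all genes tested). The cholesterol exporters ABCG1 (6, 2 and 5 to 23, 23 and 32) and ABCA1 (6, 5 and 10 to 35, 34 and 33) were higher by 2.41 ± 0.37 and 2.18 ± 0.29, from levels near the filter.

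**Figure D3:**
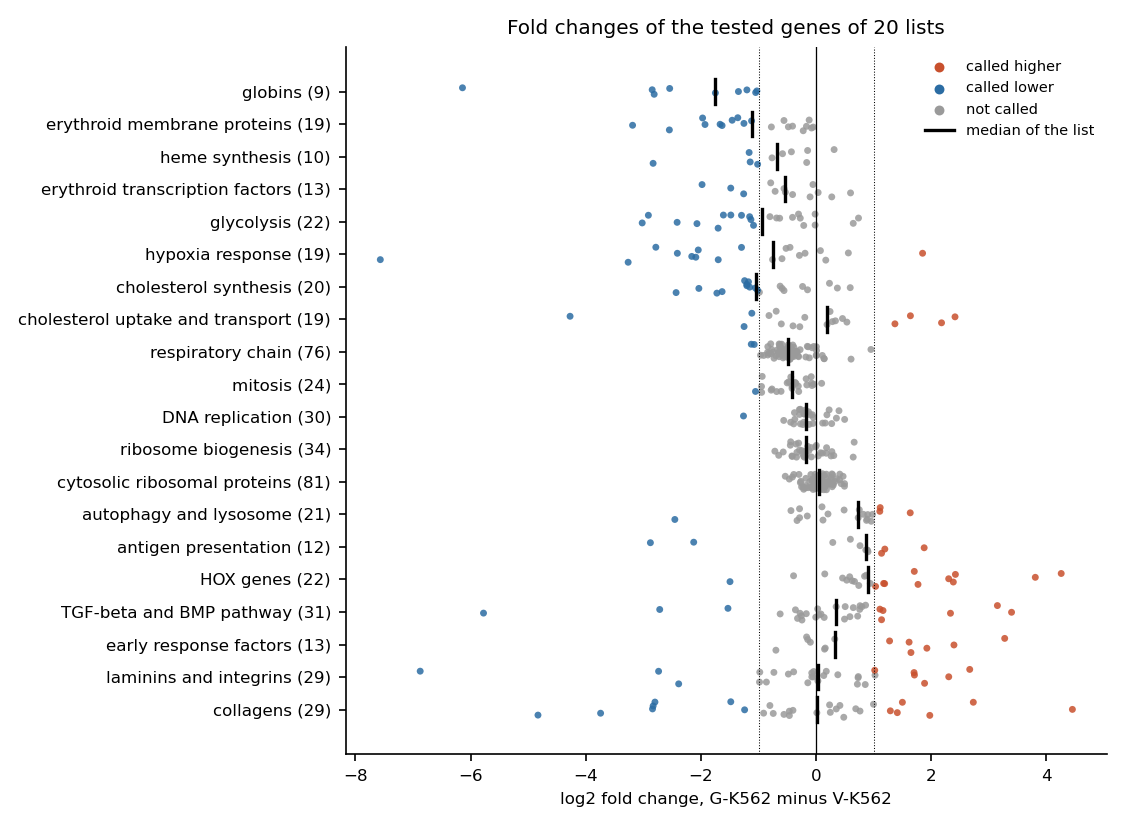
Log2 fold changes of the tested genes of 20 lists, with the number tested in parentheses. Each point is a gene, orange when called higher, blue when called lower and grey otherwise, black bars are the list medians, dotted lines mark 1 in each direction, and the vertical spread within a row is only for display. Globins, red cell membrane proteins, glycolysis and cholesterol synthesis lie to the left, HOX genes to the right and ribosomal proteins close to 0.

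Sequence before the transcription start is shown for 4 genes that fell, 1 from each of glycolysis, sterol synthesis, the red cell membrane and the TGF-beta pathway, because their lists or their start sites are described here. Each is the 250 bases before the start annotated by RefSeq on GRCh38.p14, written 5′ to 3′ on the strand of the gene. Capitals mark matches on either strand to ACGTG (LDHA), the core of the hypoxia response element, to CCAAT (HMGCS1 and TGFBR2), the NF-Y box common in sterol-regulated promoters, and to AGATAA (KEL), a form of the GATA site. ATTGG is CCAAT on the other strand, and adjoining matches are joined. LDHA is chr11:18394313-18394562 on the plus strand, HMGCS1 is chr5:43313413-43313662 on the minus strand, KEL is chr7:142962364-142962613 on the minus strand and TGFBR2 is chr3:30606106-30606355 on the plus strand. The starts in the deposited table differ from these by 174, 100, 53 and 137 bases.
LDHA: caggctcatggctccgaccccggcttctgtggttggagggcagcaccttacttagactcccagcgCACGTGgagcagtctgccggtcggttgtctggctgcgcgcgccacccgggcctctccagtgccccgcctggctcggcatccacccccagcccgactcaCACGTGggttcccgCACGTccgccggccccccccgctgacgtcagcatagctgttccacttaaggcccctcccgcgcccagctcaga
HMGCS1: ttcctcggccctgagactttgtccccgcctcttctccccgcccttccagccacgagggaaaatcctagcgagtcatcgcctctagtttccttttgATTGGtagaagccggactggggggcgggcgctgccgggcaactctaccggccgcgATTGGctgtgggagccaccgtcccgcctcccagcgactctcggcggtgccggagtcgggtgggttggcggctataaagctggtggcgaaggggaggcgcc
KEL: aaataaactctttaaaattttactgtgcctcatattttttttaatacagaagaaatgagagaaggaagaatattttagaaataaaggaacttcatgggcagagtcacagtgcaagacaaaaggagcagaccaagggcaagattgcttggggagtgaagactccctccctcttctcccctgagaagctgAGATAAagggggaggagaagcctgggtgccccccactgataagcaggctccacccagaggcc
TGFBR2: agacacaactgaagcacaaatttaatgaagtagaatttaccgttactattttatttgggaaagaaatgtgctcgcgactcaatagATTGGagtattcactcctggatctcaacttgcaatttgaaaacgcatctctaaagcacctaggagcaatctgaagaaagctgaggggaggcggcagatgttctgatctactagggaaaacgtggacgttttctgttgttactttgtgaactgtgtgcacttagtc

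The LDHA stretch held 5 matches to ACGTG over both strands in 3 places. Matches are common, and 26% of the 11742 promoters of tested genes found in RefSeq, from 250 bases before to 50 after the start, held ACGTG, against 8 of 20 glycolysis and 6 of 15 hypoxia promoters (40% of each). Lists without such falls had as many or more, with 6 of 15 promoters of sterol uptake and transport (40%) and 4 of 6 of HOX genes (66.7%). CCAAT was in 12 of 15 cholesterol synthesis promoters (80%), in 5 of 6 HOX promoters (83.3%) and in 36.9% of all. AGATAA was in 8 of 13 promoters of red cell membrane proteins (61.5%) and in 5.89% of all. Promoters of changed genes as a whole differed from the rest in short motifs and in CpG. TATAAA was in 10.7% of promoters of genes called higher, 9.18% of those called lower and 5.52% of those not called. The median share of C and G differed less, at 63.7%, 62.3% and 65% in the same order. The median number of CpG was 20, 19 and 26 in the same order, and GGGCGG was in 56.9%, 59.3% and 70%. A match is a string of letters and not a measured binding site.

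HOX genes, homeobox factors that set position along the body axis and are expressed in blood progenitors, were the list with the highest median. Of 39 members 22 passed the filter, which favours genes high in either line. Of these 10 were called higher and 1 lower (median 0.91), against 8.81% and 10.3% over all genes tested. HOXA2 went from 3, 1 and 2 to 49, 66 and 49 (4.26 ± 0.33) and HOXA3 from 25, 17 and 25 to 346, 315 and 303 (3.81 ± 0.17). HOXB2 and HOXB3, expressed at a higher level in V-K562 cells, went from 1373, 1239 and 1211 to 2881, 3001 and 2837 (1.19 ± 0.06) and from 1289, 1341 and 1506 to 3060, 3066 and 3183 (1.17 ± 0.07). The HOXA genes from HOXA7 to HOXA13 were at 2 or less in every library, whereas HOXA2, HOXA3 and HOXA5 were called higher. HOXC12 was called lower, from 19, 13 and 15 to 4, 4 and 7.

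Lists of lysosomal and antigen presentation genes had medians above 0. Of 21 autophagy and lysosome genes 3 were called higher and 1 lower (median 0.73), or 19% called, which is about the 19.1% called over all genes tested. CTSD and CTSL, lysosomal proteases, were higher by 1.11 ± 0.06 and 1.11 ± 0.09. TFEB, a transcription factor of lysosomal genes, went from 160, 141 and 186 to 34, 30 and 23 (-2.45 ± 0.18). Of 12 genes of antigen presentation tested, PSMB9, PSMB10 and HLA-B were called higher and CD74 and NLRC5 lower (median 0.87). PSMB9, an immunoproteasome subunit, went from 127, 113 and 116 to 431, 474 and 411 (1.88 ± 0.10), and B2M was at 0.76 ± 0.07. CD74, the invariant chain of class II, went from 68, 79 and 68 to 9, 15 and 5 (-2.88 ± 0.32).

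Signalling genes gave mixed directions. In the TGF-beta and BMP pathway, 6 of 31 tested genes were called higher and 3 lower (median 0.35), against 8.81% higher and 10.3% lower over all genes tested, so the count lower was near the share of all genes. Of the ligands, TGFB2 (9, 4 and 5 to 50, 49 and 81) and BMP6 were higher and BMP2 lower. Of the receptors, TGFBR1 was higher by 1.14 ± 0.06, whereas TGFBR2, its partner in ligand binding, went from 389, 428 and 441 to 5, 14 and 4 (-5.78 ± 0.33). Of the targets, ID1, an inhibitor of basic helix-loop-helix factors, was higher by 1.16 ± 0.08. Receptor, ligand and target genes of the pathway therefore did not share a direction.

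Of 13 early response factors 6 were called higher and none lower, against 8.81% higher over all genes tested. However, 1 library weighed on several of these factors. FOS went from 641, 564 and 535 to 1557, 3993 and 959, with G-K562 2 the highest, and its log2 fold change of 1.65 was 1.08 without G-K562 2. FOSB, at 2.39 with all libraries, was at 1.89 without it, and EGR2 went from 1.61 to 1.23. EGR3, from 23, 31 and 24 to 250, 353 and 195, was at 3.28 ± 0.21 and at 3.05 without that library, and IER3 was even among libraries at 1.92 ± 0.06. Among 12 genes of MAPK feedback, the ETS factors ETV1 and ETV5 were higher by 1.21 ± 0.09 and 1.18 ± 0.08, and DUSP4, a phosphatase of MAP kinases, went from 251, 220 and 202 to 20, 23 and 18 (-3.40 ± 0.16). In the NOTCH pathway MAML3, a coactivator, went from 57, 67 and 44 to 694, 637 and 736 (3.62 ± 0.15), and the ligand JAG1 was at -1.87 ± 0.30. BCL2, the survival factor, went from 16, 11 and 10 to 64, 67 and 77 (2.42 ± 0.23).

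Genes of the matrix and cell surface, axon guidance genes and nuclear receptors changed in both directions. The shares called ran from 52.2% for matrix proteases and their inhibitors to 14.8% for nuclear receptors, against 19.1% over all genes tested. Of 29 collagen genes tested 6 were called higher and 7 lower, and their median of 0.01 turned to -0.02 with values rescaled to the same upper quartile. COL14A1 went from 346, 470 and 444 to 3024, 2546 and 2756 (2.73 ± 0.11), and COL21A1 from 129, 132 and 132 to 4, 9 and 1 (-4.83 ± 0.45). Of 29 laminins and integrins 6 were called higher and 3 lower, among them ITGAX, the CD11c integrin (37, 44 and 64 to 234, 237 and 238), and ITGB7, a partner of ITGA4 (124, 118 and 126 to 15, 19 and 19). Of 23 matrix proteases and inhibitors 6 were higher and 6 lower, and TIMP3, an inhibitor of matrix metalloproteases, went from 436, 529 and 798 to 15, 19 and 10 (-5.23 ± 0.25). Of 29 axon guidance genes 5 were higher and 6 lower, with SEMA3A at 3.39 ± 0.13 and SLIT2, at 138, 148 and 109 against 4, 2 and 0, at -5.74 ± 0.48. Of 27 nuclear receptors, RARB (2.51 ± 0.22) and THRB (1.81 ± 0.08) were called higher and PGR (317, 360 and 353 to 4, 10 and 8, -5.44 ± 0.26) and NR3C2 lower.

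The basic machinery of growth changed less, with smaller shares called than the 19.1% over all genes tested. Of 81 cytosolic ribosomal protein genes none was called (median 0.05), and at adjusted p of at most 0.05 without a limit on the fold 21 were higher and 13 lower in the same limma fit. Of 34 ribosome biogenesis genes none was called (median -0.18), with 5 higher and 17 lower without the limit on the fold. The respiratory chain had 2 of 76 genes called lower, but without the limit on the fold 62 of the 76 were lower and 2 higher by limma, with a median of -0.48, against 33.3% lower and 33.5% higher over all genes. SDHB, a subunit of succinate dehydrogenase, went from 5468, 5186 and 4991 to 2341, 2607 and 2231 (-1.13 ± 0.07). Mitosis genes were alike, with 1 of 24 called lower, 18 lower without the limit and a median of -0.42, and DNA replication had 1 call of 30, ORC1 (-1.26 ± 0.07). Against B-K562 cells ribosome biogenesis differed more, with 25 of 34 genes lower in G-K562 cells and a median difference of -1.28. In that comparison 11.7% of all genes tested were lower and 17.7% higher in G-K562 cells. The ATF4 targets and serine synthesis genes had 2 of 18 called higher against V-K562 cells, NUPR1 and SLC7A5, but 15 of 18 were higher than in B-K562 cells (median 1.38).

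The remaining signalling and neuronal lists differed in share and direction of calls. The share called was 24% for WNT genes, 21.4% for cytokine receptors and 10% for phosphoinositide genes. It was 35.7% for neuronal genes and 16.7% for the MYC network, against 19.1% over all genes tested (8.81% higher and 10.3% lower). Of 25 WNT pathway genes tested 5 were called lower and 1 higher (median 0.20), and among the receptors FZD3 went from 258, 246 and 202 to 10, 10 and 9 (-4.46 ± 0.17) and FZD7 was higher by 1.01 ± 0.09. Of 14 cytokine receptors, CSF2RB, the beta chain shared by the receptors of GM-CSF, IL-3 and IL-5, went from 246, 218 and 223 to 28, 19 and 20 (-3.32 ± 0.17), although the ligand CSF2 rose. IL7R was lower too, and LIFR was higher, from 746, 759 and 787 to 1841, 1698 and 1990. Of 30 phosphoinositide genes 3 were called lower, about the share over all genes. Among them was INPP5D, the lipid phosphatase SHIP1, from 814, 903 and 911 to 191, 147 and 152 (-2.42 ± 0.11). Of 14 neuronal genes 2 were higher and 3 lower, with MAPT, the microtubule protein tau, at 1.81 ± 0.13 and SYT1, a sensor of synaptic vesicle release, from 89, 82 and 95 to 1, 2 and 0. Of 12 genes of the MYC network MYC and MXI1 were called lower, at -1.48 ± 0.06 and -1.70 ± 0.07.

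Genes around BASP1 itself were also read. MARCKS, a myristoylated relative of BASP1 at the plasma membrane, went from 85, 54 and 81 to 894, 1143 and 1043 (3.81 ± 0.16), without overlap, and was at 47, 15 and 25 in B-K562 cells. GAP43, another relative, was at -0.94 ± 0.20, and MARCKSL1 at -0.65 ± 0.09, neither called. The N-myristoyltransferases NMT1 and NMT2 were at 0.06 ± 0.05 and -0.01 ± 0.08 (adjusted p = 0.30 and 0.94, limma). METAP1, which removes the initiator methionine, was at -0.93 ± 0.06. Of 21 enzymes of H3K4, H3K9 and H3K27, KDM1A, the H3K4 demethylase LSD1, was the 1 call, from 9780, 10907 and 10064 to 4970, 5033 and 5133 (-1.02 ± 0.06). That call did not hold with the running median of neighbouring genes subtracted (-0.68). KDM6A and KDM5C, on the X chromosome, were at -0.97 ± 0.06 and -0.76 ± 0.05. Of 27 Polycomb genes CBX2 was higher (1.55 ± 0.06) and EZH1 lower (-1.22 ± 0.08), and of 24 SWI/SNF genes SMARCA2 was higher (1.32 ± 0.08) and DPF1 lower (-1.01 ± 0.15, or -0.26 with neighbouring genes subtracted). Each of these 3 chromatin lists had at most 8.33% of its members called, against 19.1% over all genes tested.

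Changed genes were not spread evenly along the genome. On chromosome X 18.9% of 528 tested genes were called lower and 4.92% higher, and on chromosome 14 the shares were 5.53% lower and 14.5% higher. All genes tested had 10.3% called lower and 8.81% higher. In 247 bins of 10 Mb with at least 20 tested genes, the median log2 fold change ranged from -0.80 to 0.71, with 12 bins above 0.3 and 21 below -0.3. The highest were 3 bins of chromosome 14 that start at 70, 90 and 100 Mb, at 0.60, 0.53 and 0.71. The 3 G-K562 libraries gave 0.68, 0.62 and 0.70 for the last of these and the V-K562 libraries -0.03, 0.01 and 0.03. Chromosome X from 10 to 20 Mb was at -0.73, with 15 of 43 genes called lower. With the running median of the 51 genes around each gene subtracted, 1283 genes were higher and 1486 lower, and 2557 of the 2919 calls were shared, with 362 lost and 212 gained. Of the most abundant genes of the 3 bins furthest from 0, TMSB4X on X (-0.54 ± 0.05) and HSP90AA1 on chromosome 14 (0.36 ± 0.07) changed sign under that correction, to 0.24 and -0.06, and LOC102724908 on chromosome 19 went from -0.32 to -0.06. Of the called genes described here, 13 came to lie within the 2-fold limit. They were WARS (0.73), SLC7A5 (0.79), FZD7 (0.96), HBE1 (-0.90), UROD (-0.78), PPOX (-0.95), SLC2A1 (-0.84), CSF3R (-0.75), NR3C2 (-0.99), SDHB (-0.69) and ORC1 (-0.88), with KDM1A (-0.68) and DPF1 (-0.26). GAP43 came to lie beyond it, at -1.15.

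**Figure D4:**
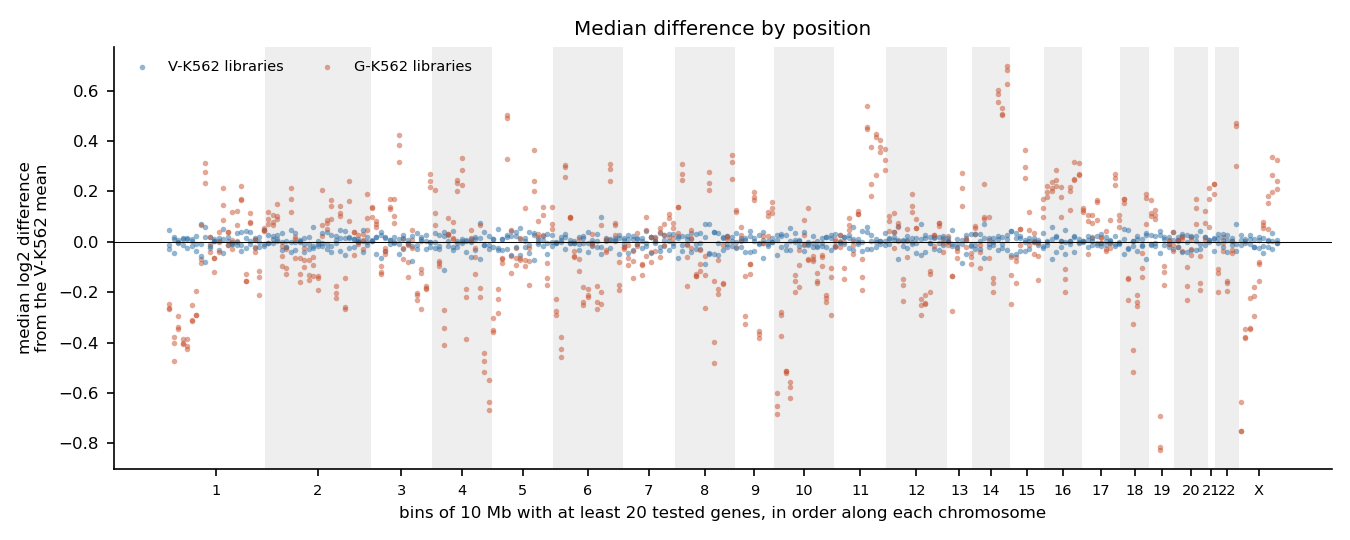
Median log2 difference from the V-K562 mean in 247 bins of 10 Mb with at least 20 tested genes, in order along each chromosome (numbers under the axis, shaded in turn). Blue points are the 3 V-K562 libraries, close to 0 in every bin, and orange points the 3 G-K562 libraries, which reach -0.83 on chromosome 19 and 0.70 on chromosome 14 in the same bins in all 3.

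The lowest bin, chromosome 19 from 20 to 30 Mb, holds a cluster of KRAB zinc finger genes, a family of repressors of transposable elements. Of its 42 tested genes 18 were called lower and none higher. ZNF486 went from 286, 272 and 301 to 9, 12 and 8 (-4.77 ± 0.18), and ZNF91, a repressor of SVA elements, from 185, 168 and 194 to 29, 25 and 23 (-2.79 ± 0.16). Neighbours in the cluster moved otherwise, and ZNF100 was at 1166, 995 and 933 in V-K562 cells and 1427, 1546 and 1336 in G-K562 cells (0.48 ± 0.09). These 3 were chosen after their values were seen, and members of the cluster are similar in sequence, so reads could be assigned to a relative. Over 238 genes with ZNF symbols on chromosome 19, 67 (28.2%) were lower and 3 higher, whereas of 248 elsewhere 16 (6.45%) were lower and 10 higher. Transcripts of the mitochondrial chromosome were lower for 5 of 30 genes (16.7%) and higher for none (median -0.54), with RNR2 from 344331, 403327 and 427389 to 146166, 136937 and 144471 (-1.45 ± 0.09). Small nucleolar RNA genes had 37 of 141 called lower (26.2%) and none higher, against 10.3% lower over all genes tested. Most lie inside host genes, and in libraries of polyadenylated RNA their values can hold reads of the host.

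ATAC-seq of the same lines gave a second readout that the RNA-seq test did not use. It cuts DNA where chromatin is open, and the authors called peaks in each library after bringing all libraries to the same number of tags. In V-K562 cells 48.3% to 51.1% of the genes called higher by RNA-seq had a peak within 1000 bases of the annotated start, and in G-K562 cells 60.3% to 61.2%. For genes called lower the shares went from between 51.8% and 54.3% to between 45.9% and 47.1%. Genes not called had 79.7% to 81% and 82.3% to 82.9%. In each class the 3 libraries of a line lay on 1 side of those of the other line, with opposite directions for the changed classes. Peaks were higher in G-K562 libraries in general, so summed heights were set against genes not called. The ratio went from between 0.426 and 0.439 to between 0.480 and 0.494 for genes called higher and from between 0.463 and 0.466 to between 0.347 and 0.359 for genes called lower. With 3 libraries in each line an exact permutation test of any of these shares cannot give a p below 0.10, so none is printed.

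**Figure D5:**
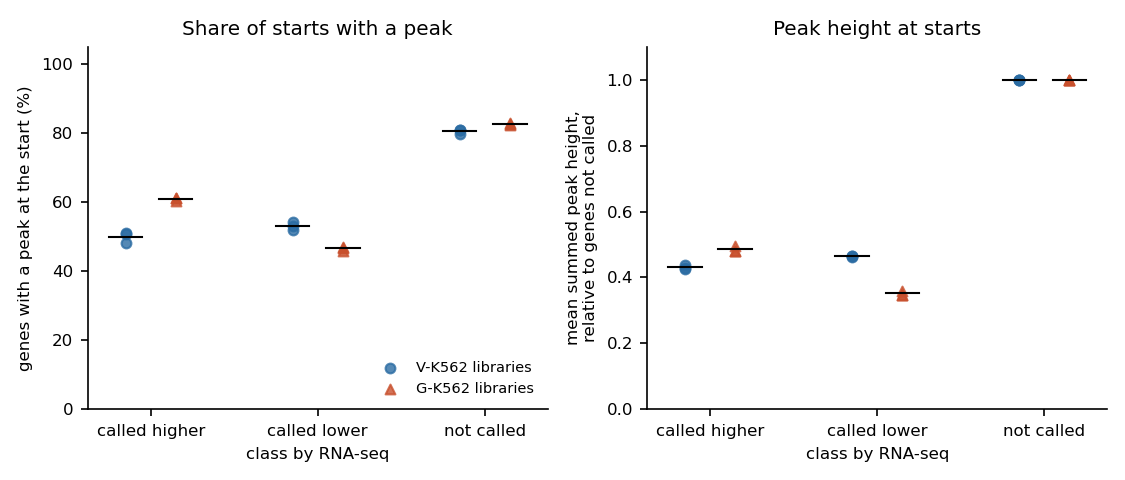
Left, percent of genes with an ATAC-seq peak within 1000 bases of the start, and right, the mean summed peak height relative to genes not called, by class in the RNA-seq comparison. Circles are V-K562 and triangles G-K562 libraries, with the mean of each 3 as a bar, and the axes start at 0. Genes called higher gained peaks (48.3% to 51.1% against 60.3% to 61.2%) and genes called lower lost them (51.8% to 54.3% against 45.9% to 47.1%).

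Switches of a peak were rarer. A peak in all 3 G-K562 and no V-K562 library was found at 76 genes called higher (5.65%), 10 called lower (0.635%) and 102 not called (0.826%), and the opposite at 4 (0.297%), 78 (4.96%) and 31 (0.251%). EFEMP1 and HDAC9 gained a peak, with summed heights of 42, 64 and 58 tags and of 24, 55 and 35 in G-K562 cells and no called peak in V-K562 cells. PCLO and HOXA2 gained one as well, with 44, 87 and 71 and with 39, 28 and 39 tags. TGFBR2 had 78, 63 and 57 tags and ITGA2B 114, 124 and 91 in V-K562 cells, and neither had a called peak in G-K562 cells. LINC00508, FSTL5, PRR16, CSMD3 and ZNF506, all among the largest falls, also had a peak in all 3 V-K562 libraries and in no G-K562 library. Peaks are calls against a threshold, so absence of a peak does not mean absence of tags.

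RNA and peaks did not go together at every gene. LDHA had 103, 107 and 87 tags at its start in V-K562 cells and 171, 203 and 171 in G-K562 cells, and HMGCS1 235, 224 and 227 against 379, 372 and 468, although the RNA of both fell. The factor by which peaks of genes not called were higher in G-K562 cells is seen in their mean summed heights, 94.4 to 100.3 in V-K562 and 155.5 to 165.8 in G-K562 libraries. MUC19, CA9 and ITGA4 had no called peak at the annotated start in either line, nor had ZIC1, LHX1 and CSF2. At 448 of the 1345 genes called higher (33.3%) and 601 of the 1574 called lower (38.2%) no library had a peak at the start, against 15% of genes not called.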

How the data were processed

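RNA-seq and ATAC-seq were each performed on 3 libraries of V-K562 and of G-K562 cells. For RNA-seq the authors aligned 75-nt read pairs from stranded mRNA libraries with STAR (GRCh38), dropped duplicates and reads that were not unique or had over 2 mismatches, and used Subread to count RefSeq transcripts. To make the deposited signal values the authors divided the counts by 1 DESeq2 size factor per library (0.872 to 1.13 by the spacing of the values) and rounded them. The deposited gene length, named other here as neither count nor level, is that of the merged exons. The deposited ATAC-seq signal is the tags at the summit of each MACS2 peak, called by the authors per library. The columns of the authors' own comparisons (fold changes and adjusted p-values) were not used.

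Log2(value + 1) of the 6 libraries was fitted with limma-trend (limma 3.58.1 under R 4.3.3), adjusting p-values over all 15271 genes. Because the values are not raw counts, no count model was used. A fit of all 9 libraries gave the differences between G-K562 and B-K562 cells, after B-K562 values were multiplied by 1.02. Figures and summaries used Python 3.11.15, pandas 2.3.3 and numpy 2.4.6. Genes, lists and members were chosen with earlier results of these data known. Genes named are BASP1 and the 12 largest rises and falls with a mean of at least 50 and no overlap between the lines. Added to these are the 6 largest of each by amount and called members of lists with the 2 largest changes each way. Fixed lists and markers, and others as members of those lists, complete them. Replicate numbers did not pair the libraries (correlations of deviations of -0.10, -0.06 and 0.15). Of 330 missing symbols and 27 turned into dates, 28 were restored. Results for some genes are not reported here.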

Additional observations from a re-analysis of the deposited data

How the results depend on the processing

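The number of genes higher stayed within 1.5 times 1345 and the number lower within 1.5 times 1574 under other pseudocounts, scalings, variance models and position correction, between 1200 and 1522 and between 1438 and 1640. Requiring 10 in all 6 libraries gave 924 higher and 1009 lower, 50 in at least 3 libraries gave 901 and 1029, no filter gave 1737 and 2033, and no limit on the fold gave 5123 and 5086. The filter of 10 in all 6 libraries removes genes at or near 0 in 1 line, and that of 50 removes genes low in both. Quantile normalization turned the balance of calls, to 1522 higher against 1446 lower (51.3% of calls higher, against 46.1%). When single libraries were left out, the counts ranged from 1279 to 1390 higher and from 1541 to 1630 lower. With the replicate number as a block they were 1348 and 1576, and since same-numbered libraries did not deviate together the block is no pairing. Of 204 named genes, 4 changed sign, all under position correction: HDAC1 (0.10), HSP90AA1 (-0.059), RELA (-0.063) and TMSB4X (0.24). With position correction 2557 of the 2919 calls were shared. A few calls near the limit depended on 1 library. Without G-K562 1 the calls of CSF3R (-0.96), DPF1 (-0.95) and HBE1 (-0.98) were lost, without G-K562 2 those of CTSL (0.99) and FZD7 (0.99), and without G-K562 3 those of DPF1 (-0.93), HBE1 (-0.95), PLEK (0.81) and, just inside the limit, STEAP3. Without V-K562 1 those of HBE1 (-0.97), PLEK (0.87), PPOX (-0.99) and, just inside the limit, DPF1 and FZD7 were lost, without V-K562 2 those of FZD7 (0.96) and KDM1A (-0.98), and without V-K562 3 that of CSF3R (-0.79). Under quantile normalization RNR2 (-0.95) and DPF1 (-0.87) lost their calls, and with a robust prior FOS did (adjusted p = 0.056, limma). Of 57 lists, the median of 1, collagens, changed sign under a scaling. Values near 10 rest on about as many reads, so fold changes of genes at 0 in a line are limited by depth.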
